A study of Drosophila melanogaster with 42 samples.

Results

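The X-chromosomal binding of MSL1 was compared with that of MSL3 in female flies that were made to express MSL2. The comparison used the peaks on the X chromosome in the MSL1 list and in the MSL3 list of this line. It covered 522 of the 905 MSL1 peaks and 1100 of the 1546 MSL3 peaks, which is 1622 of the 2451 peaks in both lists and of the 39130 peaks in the 6 lists of the series. The females, named M1[wt]_M2 in the labels and M1[WT]+MSL2 in the study, carried no functional endogenous msl-1 (msl-1 L60 over msl-1 γ269). They expressed wild-type MSL1 and FLAG-tagged wild-type MSL2 from Ubi:msl-1 WT and Ubi:msl-2 WT-FLAG transgenes, both under the strong and ubiquitous Ubi-p63E promoter, with M{3xP3-RFP.attP}ZH-86Fb as the labelled background. MSL3 came from its own gene. Chromatin was taken from whole adult flies of 2 to 3 days, so that each peak averages over all tissues. Chromatin immunoprecipitation with rabbit antibodies was followed by sequencing (ChIP-seq), in 2 libraries for each protein, and 1 list per protein was deposited. Peaks were called against nonspecific IgG, and the labelled IgG libraries come from wt flies and not from the transgenic line. With 1 list per protein there is no spread between replicates for a count of peaks, and no test between the proteins was possible. Shares are therefore given with their 95% Wilson intervals, which cover counting error only, and depth is unknown because a peak list holds no read totals.

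The male-specific lethal (MSL) complex brings about dosage compensation in Drosophila by raising the transcription of genes on the single male X chromosome. MSL1 is the scaffold on which MSL2, MSL3 and the histone H4K16 acetyltransferase MOF assemble. MSL2 recognizes DNA at the high-affinity sites (HAS), where the complex enters the X and where GA-rich elements are common, and the roX RNAs are built into the complex. MSL3 carries a chromodomain and is known for its part in spreading from the entry sites into the bodies of transcribed genes that carry H3K36 methylation. Wild-type females make no MSL2 and assemble no complex on the X. MSL1 is also known to bind promoters on all chromosomes without the complex.

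GA or CA repeats lay beside a minority of MSL1 summits, the summit being the base at which the peak caller placed the maximum of a peak. They were searched as GAGAGAGA and CACACACA, on both strands, in the 201 bp centred on the summit, and the GA repeat was found at 78 and the CA repeat at 64 of the 522 X MSL1 summits. The windows below show some of the strongest MSL1 peaks with such a repeat, once windows touching an annotated UTR were passed over (2 with an MSL3 peak nearby and 3 without). Capitals mark the whole unbroken alternating run, sequences are from the RefSeq dm6 assembly on the strand that reads GA or CA, and 30 bases flank each run. The first 4 had an MSL3 peak within 500 bp. They are the window in the roX2 RNA gene (chrX:11580236-11580304, plus strand, MSL1 rank 3 of the 522 X peaks), an intron of the autophagy gene Atg5 (chrX:7320985-7321069, minus strand, rank 8), an intron of the nuclear pore gene Nup153 (chrX:16608059-16608143, plus strand, rank 9) and an intron of the H4K20 methyltransferase gene Hmt4-20 (chrX:654474-654548, plus strand, rank 12).
roX2: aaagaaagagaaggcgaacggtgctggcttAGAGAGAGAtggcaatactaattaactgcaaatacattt
Atg5: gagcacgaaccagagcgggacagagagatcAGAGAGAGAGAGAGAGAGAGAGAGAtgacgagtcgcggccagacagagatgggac
Nup153: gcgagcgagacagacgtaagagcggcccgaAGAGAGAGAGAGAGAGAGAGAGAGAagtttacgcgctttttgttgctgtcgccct
Hmt4-20: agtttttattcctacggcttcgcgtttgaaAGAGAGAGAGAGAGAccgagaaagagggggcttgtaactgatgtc
The other 3 had no MSL3 peak within 500 bp, and all lay in introns. They are in ben, which encodes a ubiquitin-conjugating enzyme (chrX:13996946-13997015, minus strand, rank 85), the diacylglycerol kinase gene rdgA (chrX:9023529-9023608, minus strand, rank 87) and the dopamine receptor gene Dop2R (chrX:20024643-20024713, plus strand, rank 103).
ben: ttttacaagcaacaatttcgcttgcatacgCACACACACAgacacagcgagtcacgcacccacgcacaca
rdgA: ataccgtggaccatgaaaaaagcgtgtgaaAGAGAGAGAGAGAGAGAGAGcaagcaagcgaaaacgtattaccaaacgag
Dop2R: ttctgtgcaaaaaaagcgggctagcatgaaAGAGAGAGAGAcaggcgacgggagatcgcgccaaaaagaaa
The longest run shown, in Atg5 and Nup153, was 25 bases, and that in ben was a CA run of 10 bases.

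To find how far both proteins occupied the same places, a peak was called shared when the nearest peak of the other protein lay within 500 bp of its edge, and private otherwise. On the X, 367 of the 522 MSL1 peaks were shared (70.3%, interval 66.3 to 74.1), and 155 were private. Of the 1100 MSL3 peaks, 505 were shared (45.9%, 43.0 to 48.9) and 595 were private. Over the whole lists the shared share was 53.9% of MSL1 peaks and 40.6% of MSL3 peaks. On the 5 autosomal arms it was 30.5% of 374 MSL1 peaks (26.0 to 35.3) and 28.4% of 409 MSL3 peaks (24.2 to 32.9), so both X shares lay above the autosomal intervals. With margins of 500 bp, MSL3 peaks took up 9.36% of the X and MSL1 peaks 5.27%. The part of peak density in the difference between the X and the autosomes was not tested. Counted by summits within 500 bp of each other instead, the shares were 51.9% on the X and 28.1% on the autosomes for MSL1, but 25.0% and 25.7% for MSL3, whose X share was then no higher than the autosomal one. A further 9 MSL1 and 37 MSL3 peaks lay on the Y chromosome or unplaced sequence and were left out of the X and autosomal counts.

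Which protein had the higher share depended on how many peaks were compared. When only the 522 strongest X peaks of MSL3 were kept, an alternative chosen after seeing the data, the order turned round: 57.5% of MSL1 peaks and 69.5% of MSL3 peaks were then shared. The strongest peaks were shared most often in both lists. With the MSL1 peaks cut by rank into 4 groups of 130 or 131, the shared share was 87.8% in the strongest group, 72.3% and 70.8% in the next 2, and 50.4% in the weakest. In the 4 groups of 275 MSL3 peaks it was 84.0%, 50.5%, 29.8% and 19.3%, strongest to weakest. The median private peak stood at 64.4% of the MSL1 rank order and 65.5% of the MSL3 rank order, while the median shared peak stood at 42.7% and 27.9%.

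Most shared peaks overlapped outright. An overlap was found for 338 MSL1 peaks and 432 MSL3 peaks, and no peak of either list had its nearest neighbour of the other protein at a gap of 1 to 99 bp. Gaps of 251 to 500 bp accounted for 26 MSL1 and 66 MSL3 peaks. The smallest gap between neighbouring peaks of the same list was 221 bp for MSL1 and 181 bp for MSL3. Private MSL1 peaks lay closer to MSL3 than private MSL3 peaks lay to MSL1. Their median gap was 2573 bp for MSL1 (quartiles 1129.5 and 9662.5 bp) and 5554 bp for MSL3 (1868 and 15470 bp). Over 10000 bp from the other protein were 38 MSL1 and 205 MSL3 peaks, which is 24.5% and 34.5% of the private peaks. The X held fewer MSL1 peaks, with a median of 11529 bp between neighbours in its list against 2213 bp in the MSL3 list.

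The limit of 500 bp cut through neighbouring peaks of some genes. Just inside it were MSL1 peaks at CG5541 and near Paics, at gaps of 490 and 473 bp, and MSL3 peaks at the AMP deaminase gene AMPdeam and at CG32809, at 499 and 491 bp. Just outside it were MSL1 peaks at Vps4, which encodes an ESCRT ATPase, and at Socs16D, a gene of the SOCS family, at 506 and 508 bp, and MSL3 peaks at the Smad gene Smox and at Vps4, both at 506 bp. At Vps4 the 2 private peaks faced each other: the MSL1 summit lay in an intron 201 bp from a start site (chrX:17907628-17908022), and the MSL3 summit in a coding exon (chrX:17908529-17910197).

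Several MSL3 peaks often accompanied 1 MSL1 peak. Of the shared MSL1 peaks, 209 had 1 MSL3 peak within 500 bp and 158 had 2 or more, 38 of them 3 or more. Of the shared MSL3 peaks, 440 had 1 MSL1 peak and 65 had 2 or more. Joining all shared peaks within 500 bp gave 316 regions, of which 173 held 1 peak of each protein, 97 held 1 MSL1 peak and 2 or more MSL3 peaks, 9 held 2 or more MSL1 peaks and 1 MSL3 peak, and 37 held several of both. The regions spanned a median of 2084 bp, and the longest spanned 12552 bp at HERC2, which encodes a large E3 ubiquitin ligase (chrX:20400659-20413210), with 1 MSL1 peak and 2 MSL3 peaks. The bases covered in a region came to a median of 1525.5 bp for MSL1 and 1591.5 bp for MSL3, and MSL1 covered more bases than MSL3 in 212 of the 316 regions. Over the whole X, MSL1 peaks covered 770283 bp (3.27% of the chromosome) and MSL3 peaks 1316038 bp (5.59%). The 495484 bp under both were 64.3% of the MSL1 bases and 37.6% of the MSL3 bases.

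Along the chromosome the numbers of peaks of both proteins tended to go together. In the 24 windows of 1 Mb, the last of which is shorter, the number of MSL1 peaks ranged from 9 to 38 (median 22.5) and that of MSL3 peaks from 17 to 73 (median 51.5), with a Spearman rho of 0.79 over the windows. The window with the most MSL1 peaks held 53 MSL3 peaks, close to the median, and another window held 16 MSL1 peaks beside 64 MSL3 peaks. All windows share the same libraries, and the correlation is a description.

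Shared MSL1 peaks were the widest on the X. Their median width was 1368 bp (quartiles 742 and 2348 bp), against 547 bp (394 and 903 bp) for private MSL1 peaks. MSL3 peaks showed less of a difference, with 905 bp (478 and 1714 bp) for shared and 833 bp (489.5 and 1429.5 bp) for private peaks. On the autosomes the medians were 443.5 bp for shared and 396 bp for private MSL1 peaks, and 373 bp and 332 bp for shared and private MSL3 peaks. A wide peak has more chances to come within 500 bp of another, and the part of width in the shared calls was not tested. The widest MSL1 peaks lay at CG12236 (7509 bp), Nup153 (7118 bp, an MSL1 peak of rank 401 upstream of the one shown above) and hiw (6579 bp), which encodes the E3 ubiquitin ligase Highwire, and all 3 were shared. The widest MSL3 peaks lay at HERC2 (11172 bp), at Rbcn-3A, a regulator of the vacuolar proton pump (10622 bp), and at the histone methyltransferase gene trr (7786 bp). The Rbcn-3A peak was private, 7218 bp from the nearest MSL1 peak, while the others overlapped one.

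**Figure D1:**
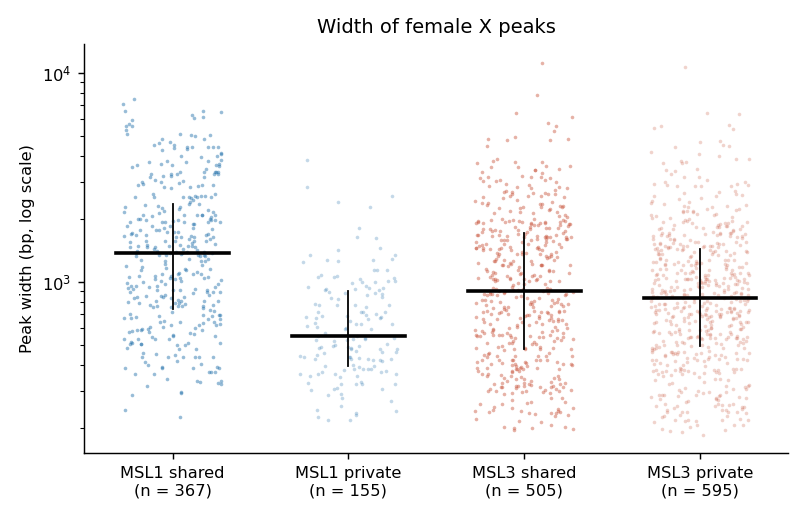
Width of each X peak (y axis, bp, log scale) for shared and private MSL1 and MSL3 peaks (x axis). Each point is a peak, horizontal bars are medians and vertical bars run between the quartiles. The shared MSL1 peaks, with a median of 1368 bp, sit above the private ones at 547 bp, while the MSL3 medians of 905 and 833 bp lie close together.

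High-affinity sites were occupied mainly by both proteins. Of the 301 HAS regions of the X that the study lists, 188 had peaks of both proteins within 500 bp. A further 37 had MSL1 alone, 29 had MSL3 alone and 47 had neither. A listed HAS lay within 500 bp of 57.8% of shared MSL1 peaks (52.7 to 62.7) and of 22.6% of private MSL1 peaks (16.7 to 29.8). The MSL3 shares were 55.6% for shared peaks (51.3 to 59.9) and 7.39% for private peaks (5.55 to 9.78). Over all X peaks the shares were 47.3% for MSL1 and 29.5% for MSL3, over the whole lists 27.3% and 21%, and positions within 500 bp of a listed HAS made up 2.44% of the X. Of the 316 joined regions, 188 held a listed HAS.

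To compare positions, each MSL1 peak was paired with an MSL3 peak when each was the other's nearest by summit and the edges lay within 500 bp. This gave 352 pairs, of which 335 overlapped. Their summits lay a median of 90 bp apart (quartiles 30.75 and 451.75 bp, at most 4092 bp), with 183 pairs (52.0%) within 100 bp and 271 (77.0%) within 500 bp. Mutual nearest summits favour small distances by construction: pairing each MSL1 peak with the strongest MSL3 peak within 500 bp gave a median of 228 bp, and pairing only summits within 500 bp of each other gave 54 bp. The lists also hold the summit of each peak in both inputs from which its reproducibility was judged, and this gives a measure of error within a protein. In the same pairs the summits of the 2 inputs lay a median of 31 bp apart for MSL1 and 24.5 bp for MSL3. In 206 of the 352 pairs the distance between the proteins was larger than both of these distances. The inputs are not named in the lists and may be pseudoreplicates, and peaks were kept for their agreement between them, so this error may be understated. The MSL1 list ends near the IDR cutoff stated for true replicates and the MSL3 list near the one stated for pseudoreplicates, so the inputs, and what is computed between them, may be of different kinds for the 2 proteins.

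**Figure D2:**
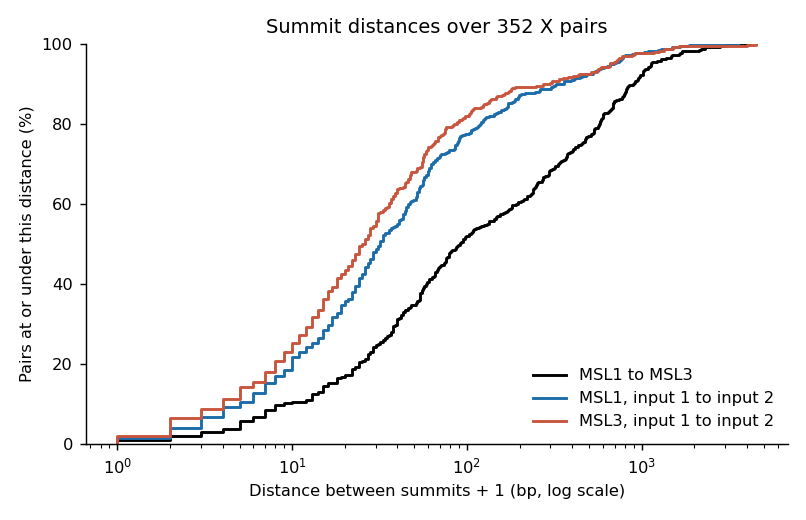
Cumulative share of the 352 X pairs (y axis, %) by the distance between summits plus 1 bp (x axis, log scale). The black line gives MSL1 to MSL3, and the coloured lines give the distance between the 2 inputs of MSL1 and of MSL3. The line between the proteins, with a median of 90 bp, runs to the right of those within a protein, at 31 and 24.5 bp.

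The distance between the proteins was larger in wide peaks. It was a median of 39 bp in the 108 pairs in which both peaks were under 1000 bp wide. With MSL1 peaks under 1000 bp it was 54 bp (130 pairs), with those from 1000 to under 2000 bp 102 bp (111 pairs), and with those of 2000 bp or more 293 bp (111 pairs). Pairs with a listed HAS within 500 bp were farther apart, at a median of 137 bp (204 pairs), than those without, at 64.5 bp (148 pairs). They were also wider, with median MSL1 and MSL3 widths of 1987 and 1352.5 bp in pairs with a HAS, and 834 and 651.5 bp in pairs without. Autosomal pairs lay a median of 26 bp apart (113 pairs). At the 204 pairs with a HAS, distance was measured to the nearest lower-coordinate edge of a listed HAS region and not to its centre. The MSL1 summit was nearer to such an edge in 132, the MSL3 summit in 70, and both were equally far in 2. The median distances from that edge were 739.5 bp for the MSL1 summit and 815.5 bp for the MSL3 summit. Because the regions have a width, these values do not show how near a summit lay to the site itself.

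The shift between the proteins had no common direction along the gene. In the 283 pairs with both summits in the same protein-coding gene, the MSL3 summit lay downstream of the MSL1 summit in 129, upstream in 151 and at the same base in 3. Shifts of over 500 bp were downstream in 30 and upstream in 31. The MSL1 peak was the wider of the pair in 285 of 352 pairs, and the ratio of widths, MSL1 over MSL3, had a median of 1.28 (quartiles 1.04 and 2.01). A pair holds 1 MSL3 peak even where several lay near. By joined region, with all peaks counted, MSL1 covered more bases than MSL3 in 212 of 316. Widths correlated over the pairs with a Spearman rho of 0.63, while between the 2 inputs of a protein it was 0.88 for MSL1 and 0.94 for MSL3.

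Both roX genes stood higher in the MSL1 than in the MSL3 rank order. roX1 and roX2 encode the RNAs of the complex and hold the best-known HAS, and Pp2C1, a protein phosphatase gene, was among the loci shown by the study. The MSL1 peak at roX1 (chrX:3860738-3862700) was the strongest of the X, and the MSL3 peak inside it (chrX:3860958-3861691) ranked 89 of 1100. Their summits, at 3861335 and 3861366, were 31 bp apart. At roX2 the MSL1 peak (chrX:11576943-11583440, 6498 bp wide) ranked 3, and the MSL3 peak (chrX:11580188-11583596) ranked 114, with summits 495 bp apart, inside the roX2 exon for MSL1 and in intergenic sequence 26 bp from a start site of nod for MSL3. At Pp2C1 the MSL1 peak (chrX:4684244-4686814) ranked 11, and 2 MSL3 peaks accompanied it. The stronger one (chrX:4684357-4684832, rank 157) had its summit in the same intron, 4 bp from that of MSL1, and the weaker one (chrX:4680629-4683934, rank 284) had it in a coding exon.

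The order of strength was only partly the same for both proteins. Ranks by −log10 p over the 352 pairs had a Spearman rho of 0.47, ranks by fold enrichment one of 0.50 and ranks by the deposited score one of 0.21. Between the 2 inputs of the same protein rho was 0.95 for MSL1 and 0.91 for MSL3. Over pairs with a listed HAS it was 0.47 (204 pairs), over those without 0.39 (148 pairs), and over the autosomal pairs 0.20 (113 pairs). All these are descriptions over peaks that share their libraries. Wider peaks tended to rank higher, with a rho between −log10 p and width of 0.46 for MSL1 and 0.33 for MSL3. No pair stood among the 10 strongest X peaks of both lists. There were 3 pairs among the 25 strongest of both, 16 among the 50 strongest and 41 among the 100 strongest. The top of the MSL1 list was held by roX1, CG9132 and roX2, and that of the MSL3 list by peaks near the start of the kinase gene Tlk, in the nuclear receptor gene Hr4 and near the start of cib, which encodes an actin-binding protein. The Hr4 peak had no MSL1 peak nearby, while those at Tlk and cib overlapped one.

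**Figure D3:**
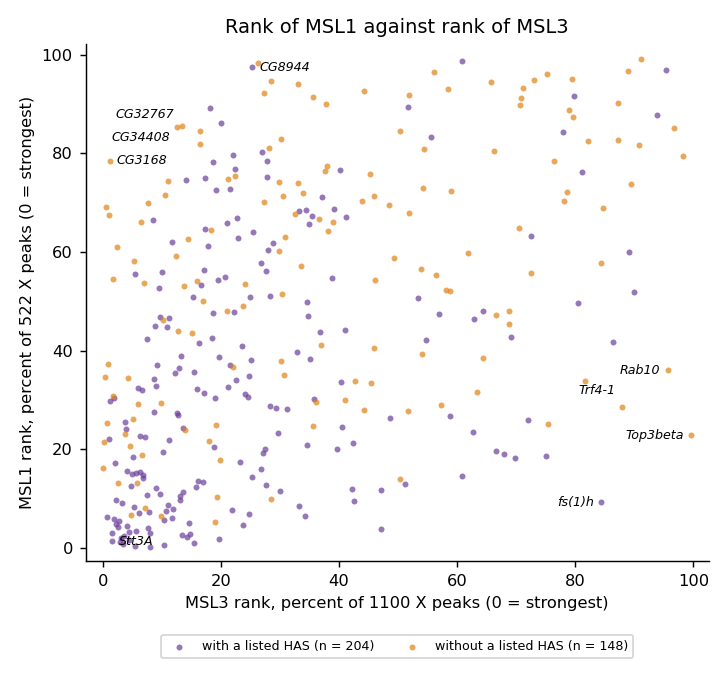
MSL1 rank (y axis) against MSL3 rank (x axis) of the 352 X pairs, each as a percent of the protein's X peaks with 0 for the strongest. Purple points have a listed HAS within 500 bp (n = 204) and orange points do not (n = 148), and the named genes are those with the lowest mean rank (Stt3A) or the largest differences. The points are spread widely around a rho of 0.47, with more of the purple ones at the strong end.

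The 8 pairs with the lowest mean rank all had a listed HAS and a female MSL2 peak within 500 bp. Over all shared X MSL1 peaks the shares were 57.8% for a HAS and 90.5% for MSL2. Stt3A, which encodes the catalytic subunit of the oligosaccharyltransferase, came first, with MSL1 rank 7 and MSL3 rank 17. Its MSL1 peak (chrX:21049865-21054160) was 4296 bp wide and its MSL3 peak 1518 bp, and both summits lay in a coding exon, 236 bp apart. CG4645 followed with MSL1 rank 16 and MSL3 rank 18 and summits 22 bp apart. CG12237 had MSL1 rank 6 and MSL3 rank 32, sta, which encodes the ribosomal protein SA, had MSL1 rank 32 and MSL3 rank 9, and Socs16D had MSL1 rank 4 and MSL3 rank 38. At sta the summits were 15 bp apart and at Socs16D 12 bp, while at CG12237 they were 936 bp apart. The splicing regulator gene su(w[a]) had MSL1 rank 10 and MSL3 rank 35, the JNK kinase gene hep had MSL1 rank 25 and MSL3 rank 24, and hiw had MSL1 rank 22 and MSL3 rank 28. In all 8 the MSL1 peak was the wider, by a ratio from 1.14 at hep to 9.07 at Socs16D. The ratio takes 1 MSL3 peak per pair. The joined region at Socs16D held 2 MSL3 peaks, which covered 4081 bp together beside 5059 bp of MSL1.

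At the other extreme some pairs were strong for 1 protein and weak for the other. The 4 pairs most in favour of MSL1 lay at the topoisomerase gene Top3beta, at fs(1)h, which encodes a BET bromodomain protein, at the small GTPase gene Rab10 and at the poly(A) polymerase gene Trf4-1. The Top3beta peak ranked 119 for MSL1, with its summit 7 bp from a start site, and 1096 for MSL3, with its summit 1216 bp away in a coding exon of the neighbouring gene wuho. At fs(1)h the ranks were 48 for MSL1 and 928 for MSL3, and the peaks did not overlap, with a gap of 278 bp. Rab10 had MSL1 rank 188 and MSL3 rank 1052, and Trf4-1 had MSL1 rank 149 and MSL3 rank 968. The 4 pairs most in favour of MSL3 lay near CG3168 (MSL1 rank 410, MSL3 rank 13) and in coding exons of CG34408 (446 and 139), CG32767 (447 and 147) and CG8944 (509 and 279). Their summits were 1 to 78 bp apart. Of these 8 pairs, fs(1)h and CG8944 had a listed HAS within 500 bp, and all had a female MSL2 peak, as had 90.5% of all shared X MSL1 peaks.

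The strongest private MSL1 peak lay in CG32767 (chrX:5075511-5076284), at rank 19 and only 522 bp from an MSL3 peak. The next were at hep (rank 46, gap 640 bp), the mitochondrial chaperonin gene Hsp60A (rank 53, 903 bp), CG3198 (rank 58, 915 bp) and near disco, a zinc-finger transcription factor gene (rank 82, 50645 bp). A listed HAS lay within 500 bp of those at CG32767, hep and CG3198, and a female MSL2 peak near all but Hsp60A. The gene hep thus held a private MSL1 peak at its 5′ end (chrX:13089353-13090493), 291 bp from a start site, as well as the strong shared pair farther downstream. The strongest private MSL3 peak lay in an intron of Hr4 (chrX:1952865-1953441), at rank 2 and 29083 bp from the nearest MSL1 peak. It was followed by peaks at raskol, a Ras GTPase-activating protein gene (rank 15, gap 1322 bp), at Rubicon (rank 16, 9782 bp), at CG4293 (rank 31, 54208 bp) and near RpL37-1 (rank 33, 1036 bp). None of these 5 had a listed HAS within 500 bp, and the first 4 had a female MSL2 peak. At raskol, Rubicon and CG4293 the summit was 49, 103 and 88 bp from a start site. All 10 peaks had male MSL1 and male MSL3 peaks within 500 bp, as had most private peaks. Male MSL1 lay near 89.7% of private MSL1 and 93.8% of private MSL3 peaks, and male MSL3 near 84.5% and 94.5%. A listed HAS lay near 22.6% of private MSL1 and 7.39% of private MSL3 peaks, and female MSL2 near 65.2% and 49.7%.

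MSL2, which was ectopically expressed in these females, accompanied most shared peaks. A female MSL2 peak lay within 500 bp of 90.5% of shared MSL1 peaks (87.0 to 93.1) and 65.2% of private ones (57.4 to 72.2). The share was 83.0% over all X MSL1 peaks and 60.8% over the whole MSL1 list, autosomes included. For MSL3 it was 89.1% of shared peaks (86.1 to 91.5) and 49.7% of private ones (45.7 to 53.8). Over all X MSL3 peaks it was 67.8%, and over the whole MSL3 list 59.7%. The 1577 female MSL2 peaks of the X with margins of 500 bp took up 10.6% of the chromosome. Peaks with neither MSL2 nor a listed HAS numbered 25 of 367 shared and 48 of 155 private MSL1 peaks (6.81% and 31.0%). The MSL3 numbers were 42 of 505 shared and 290 of 595 private peaks (8.32% and 48.7%). Of these private peaks with neither in the lists, 30 of the 48 of MSL1 and 97 of the 290 of MSL3 had a transcription start site within 500 bp. Over all private peaks it was 92 of 155 for MSL1 (59.4%) and 241 of 595 for MSL3 (40.5%). Over all X peaks it was 324 of 522 (62.1%) and 522 of 1100 (47.5%).

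Start sites lay most often near the summits of private MSL1 peaks. Measured from the peak edge, a start site lay within 500 bp of 63.2% of shared MSL1 peaks (58.2 to 68.0) and 59.4% of private ones (51.5 to 66.8). The share was 62.1% over all X MSL1 peaks and 69.9% in the whole list. The MSL3 shares were 55.6% (51.3 to 59.9) and 40.5% (36.6 to 44.5), with 47.5% over all X peaks and 53.1% in the whole list. Measured from the summit, which takes width out of the comparison, the shares were 34.1% (29.4 to 39.1) for shared and 52.9% (45.1 to 60.6) for private MSL1 peaks, and 27.5% (23.8 to 31.6) for shared and 17.8% (14.9 to 21.1) for private MSL3 peaks. The shared and private MSL1 peaks thus changed order with the way of measuring. Positions within 500 bp of a start site made up 15.6% of the X. On the autosomes 71.9% of shared and 78.8% of private MSL1 summits lay within 500 bp of a start site.

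**Figure D4:**
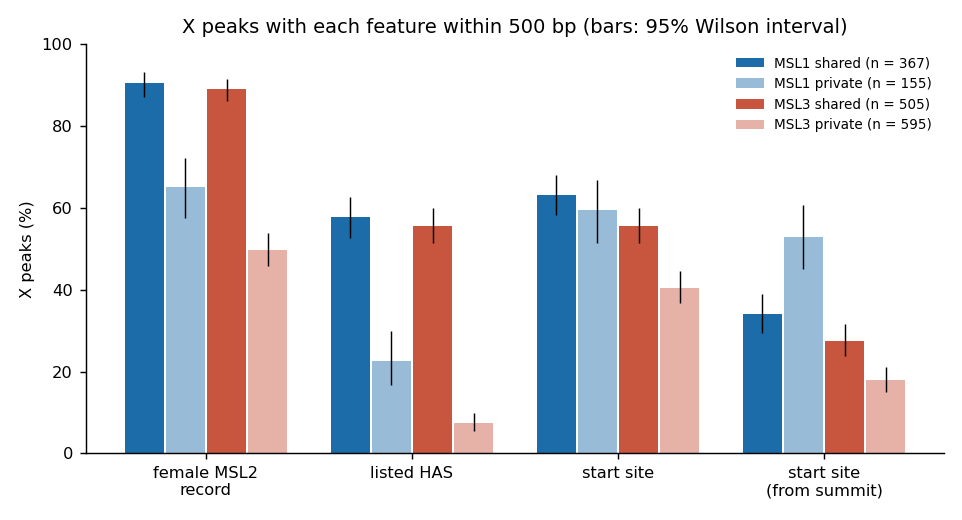
Share of X peaks (y axis, %) with a female MSL2 peak, a listed HAS or a start site within 500 bp, and with a start site within 500 bp of the summit (x axis), for shared and private MSL1 and MSL3 peaks. Error bars are 95% Wilson intervals. The MSL2 and HAS bars are higher for shared than for private peaks of both proteins, while the start site bars measured from the summit are highest for private MSL1 peaks, at 52.9%.

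Most peaks of either class had a counterpart in the male lists. The male lists come from the M1[wt] line, msl-1-null males with 2 copies of Ubi:msl-1 WT that make their own MSL2. The genotype label of the male MSL3 libraries reads M1[wt]_M2, although their titles name the m1wt males, and the male MSL1 list rests on 1 library. A male peak of the same protein lay within 500 bp of 99.5% of shared and 89.7% of private MSL1 peaks, and of 99.0% of shared and 94.5% of private MSL3 peaks. A male MSL3 peak lay near 84.5% of the private MSL1 peaks (78.0 to 89.4), and a male MSL1 peak near 93.8% of the private MSL3 peaks (91.5 to 95.5). Male MSL2 peaks lay near 97.3% of shared and 86.5% of private MSL1 peaks, and 98.0% of shared and 82.9% of private MSL3 peaks. The background was high, since male MSL1, MSL2 and MSL3 peaks with margins of 500 bp took up 29.4%, 20.2% and 22.8% of the X. Over the whole female MSL1 list the shares with male MSL1, MSL2 and MSL3 were 94.9%, 81.4% and 84.3%, and over the whole female MSL3 list 91.1%, 80.5% and 93.3%. The shares of private peaks with the other protein in males were close to these whole-list shares, which include autosomal peaks. They lay below the shares over all X peaks, which were 94.6% of MSL1 peaks with male MSL3 and 96.5% of MSL3 peaks with male MSL1.

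MSL3 summits lay mainly in coding exons, and private MSL1 summits seldom did. By the Ensembl annotation the summit was in a coding exon for 39.5% of shared MSL1 peaks (34.6 to 44.6) and 9.03% of private ones (5.46 to 14.6), and for 64.2% of shared MSL3 peaks (59.9 to 68.2) and 79.3% of private ones (75.9 to 82.4). Coding exons made up 16.7% of the X. Introns held 17.7% of shared and 36.8% of private MSL1 summits, and 10.1% of shared and 5.71% of private MSL3 summits. The 5′ UTR held 12% of shared and 18.7% of private MSL1 summits, and 8.12% of shared and 4.54% of private MSL3 summits. The 3′ UTR held 14.7% and 14.2% of shared and private MSL1 summits, and 7.13% and 3.03% of shared and private MSL3 summits. The share of the X in introns or in either UTR was not measured. The intron and UTR values therefore compare the classes only and cannot show an excess over the X. Between 80.6% (private MSL1) and 93.9% (private MSL3) of summits lay in a gene, and genes made up 77.0% of the X.

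**Figure D5:**
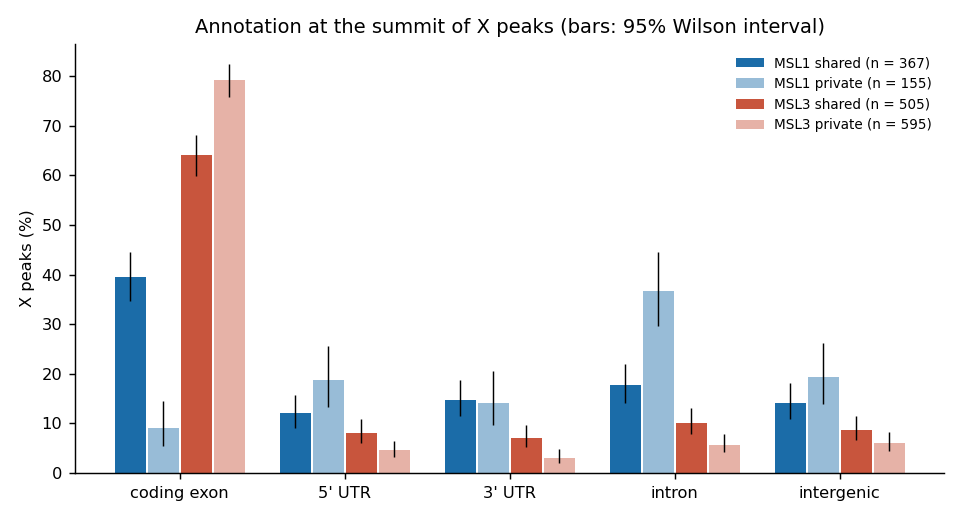
Share of X peaks (y axis, %) by the annotation at the summit (x axis), for shared and private MSL1 and MSL3 peaks. Error bars are 95% Wilson intervals. Coding exons hold 79.3% of private MSL3 and 9.03% of private MSL1 summits, and the shared peaks of both proteins lie between them.

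Within genes, private MSL1 summits leaned to the 5′ end. Shared MSL1 and private MSL3 summits leaned to the 3′ side, while shared MSL3 summits were spread more evenly. In protein-coding genes of at least 2000 bp the summit stood at a median of 61.5% of the gene from its 5′ end for shared MSL1 peaks (284 peaks) and 25.7% for private ones (113 peaks). The MSL3 medians were 55.8% for shared (401 peaks) and 65.0% for private peaks (473 peaks). When such genes were divided into 5 equal stretches, the one at the 5′ end held 21.5% of shared and 46.9% of private MSL1 summits, and 18% of shared and 12.3% of private MSL3 summits. The one at the 3′ end held 30.3% of shared and 22.1% of private MSL1 summits, and 20.0% of shared and 27.3% of private MSL3 summits. Counted once per peak, the median length of these genes was 12162 bp for private and 5920.5 bp for shared MSL1 peaks. For MSL3 it was 7679 bp for private and 5919 bp for shared peaks. A gene with several peaks counts several times in these medians, unlike in the counts by gene below.

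By gene, MSL1 peaks overlapped 473 of the 2196 protein-coding genes of the X (21.5%) and MSL3 peaks 748 (34.1%). Both proteins overlapped 403 genes (18.4%), MSL1 alone 70, MSL3 alone 345 and neither 1378. Genes with both had a median length of 4734 bp, those with MSL1 alone 4667 bp, those with MSL3 alone 3314 bp and those with neither 1934.5 bp. The part of gene length in these counts was not tested.

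Small gene groups are given by their counts, beside the shares of all X genes above, and no difference between groups was tested. A gene was counted for a protein when any peak overlapped it, wherever the summit lay. Its rank is the best among those peaks. Of the 15 X-linked genes of cytoplasmic ribosomal proteins, which are short and highly transcribed, MSL1 peaks overlapped 12 and MSL3 peaks 9, with no gene that had MSL3 alone. The 3 genes with MSL1 alone were RpS28b, RpS19a and RpL37-1, at MSL1 ranks 481, 390 and 209, and RpS10b, RpL35 and RpL36 had neither. RpL37-1 (chrX:15137870-15139367) counts as MSL1 alone only by overlap. The private MSL3 peak of rank 33 lay just outside the gene, at chrX:15137262-15137643. At RpS19a the summit of the MSL1 peak lay outside the gene, in Rok. Of the 9 genes with both, sta had MSL1 rank 32 and MSL3 rank 9 and RpL22 had MSL1 rank 155 and MSL3 rank 14, while the best ranks of the other 7 ran from 248 to 480 for MSL1 and from 61 to 705 for MSL3. RpS14a and RpS14b are near-identical neighbouring copies, so their peaks may share reads. Both had a best MSL3 rank of 705. The MSL1 peak at RpS14b (rank 248) had its summit in Ubr3 and was private, 702 bp from the nearest MSL3 peak. Overlap with both proteins is thus not always a shared peak. The 11 mitochondrial ribosomal protein genes had MSL1 at 2 and MSL3 at 7. Of these, mRpL14 and mRpL49 had both, and 5 had MSL3 alone. The best ranks at mRpL14 were 21 for MSL1 and 904 for MSL3, but that MSL1 peak had its summit in the 3′ UTR of Raf. The MSL1 peak at mRpL49 had its summit in Brms1. Of the 6 proteasome subunit genes 2 had MSL1 (Rpt6 and Rpt4) and 4 had MSL3, Rpt3 and Prosalpha4 having MSL3 alone. The MSL1 peak at Rpt4 had its summit in mldr.

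Of the 9 genes that encode the complex itself or its targeting factors, roX1, roX2 and msl-2 had peaks of both proteins. The X-linked acetyltransferase gene mof had neither, nor had the autosomal genes msl-1, msl-3, mle, JIL-1 and Clamp. The msl-2 gene, on chromosome arm 2L, had 2 peaks of each protein. These females also carry an msl-2 transgene, and its reads and those of the gene cannot be told apart.

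GA repeats were most frequent at private MSL1 summits. GAGAGAGA or its reverse complement was found within 100 bp of 12% of shared MSL1 summits (9.05 to 15.7) and 21.9% of private ones (16.1 to 29.1). It was found at 3.96% of shared MSL3 summits (2.58 to 6.04) and 1.34% of private ones (0.683 to 2.63), and in 1.54% of the 116786 tiles of 201 bp that make up the X. CACACACA or its reverse complement was found at 7.90% of shared and 22.6% of private MSL1 summits, at 6.34% of shared and 1.85% of private MSL3 summits, and in 5.77% of the tiles. The interval of the shared MSL1 share (5.56 to 11.1) holds the share of the tiles. Among MSL1 peaks with a listed HAS, the GA repeat stood at 36 of 212 shared (17%) and 14 of 35 private summits (40.0%). Among those without, it stood at 8 of 155 shared (5.16%) and 20 of 120 private summits (16.7%). On the autosomes it was found at 0 of 114 shared MSL1 summits and 15 of 260 private ones (5.77%). The windows at the summits of roX1 and Pp2C1 held neither repeat.

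The 2 proteins also differed in the base composition under their summits. The median GC content of the 201 bp was 53.2% for shared and 48.8% for private MSL1 peaks, and 56.7% for shared and 58.2% for private MSL3 peaks, while that of the X tiles was 42.3%. The order of the 4 classes by GC content was the same as by the share of summits in coding exons, and the part of base composition in the differences between the lists was not tested.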

How the data were processed

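ChIP-seq was done with 2 libraries per protein in M1[wt]_M2 females. The authors trimmed the reads with cutadapt, mapped them with Bowtie version 2 to dm6, removed duplicates with Picard and blacklisted regions, used MACS2 with nonspecific IgG as the control for peak calling, and kept an optimal set after irreproducible discovery rate (IDR) analysis. The deposited columns hold a score, the fold enrichment (a ratio over the control), and the −log10 p-value and −log10 q-value of MACS2, with the summit position. The female lists end at IDR values of 0.0496 for MSL1 and 0.00998 for MSL3, so the 2 lists were not filtered alike, and every peak of both has the position and −log10 p of IDR input 1, so that the positions, widths and ranks used are those of that input. Values were used only as ranks within a list.

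Peaks were compared by the gap between their edges, with 500 bp as the limit, which is the maximum gap in the study's colocalization. Pairs were mutual nearest summits. Start sites and genes came from Ensembl release 115 (3725 X genes, 2196 of them protein-coding, and 4817 X start sites) on an assembly with the same X length as dm6 (23542271 bp), and a summit in overlapping genes was given to the shortest protein-coding one. Named peaks were roX1, roX2, Pp2C1, the 3 strongest of each list, the 8 pairs of lowest mean rank, the 4 largest rank differences in each direction, the 5 strongest private, the 3 widest, and the 2 just inside and just outside 500 bp of each list. The members and lists were chosen with earlier results of these data known. Overlap and pairing were tested on simulated data and against bedtools 2.31.1. Python 3.11.15, pandas 2.3.3, numpy 2.4.6, scipy 1.17.1 and matplotlib 3.10.9 were used. The authors' coverage tracks were not analysed here.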

Additional observations from a re-analysis of the deposited data

How the results depend on the processing

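Other settings left 39 of 62 main values inside the 95% interval of the value reported (within 0.1 for rho) and moved 23. With overlap alone, 64.8% of MSL1 and 39.3% of MSL3 X peaks were shared, with a gap of 1000 bp 76.6% and 52.6%, and with summits within 500 bp 51.9% and 25.0%. With summits within 500 bp, the median width of shared MSL3 peaks was 757 bp and the summit distance 54 bp. With the stronger 50% of each list, 56.6% of X and 20.8% of autosomal MSL3 peaks were shared, the shared widths were 1949 bp (MSL1) and 1350.5 bp (MSL3) and rho was 0.34. With the 905 strongest peaks of each list, 59.8% of MSL1 and 65.0% of MSL3 X peaks and 24.1% of autosomal MSL1 peaks were shared, with widths of 1539.5 and 1064.5 bp. With the 522 strongest X peaks of each list, added after seeing the data, 57.5% and 69.5% were shared. With the positions and p-values of IDR input 2 in place of input 1, also added after seeing the data, the width of shared MSL1 peaks was 1519 bp and the other 7 values stayed inside. Pairing each MSL1 peak with the strongest MSL3 peak gave a distance of 228 bp, and ranking by score gave a rho of 0.21. A −log10 q of at least 2 changed no value. Of 42 other values 29 stayed inside and 13 moved. The X share stayed above the autosomal share of the same setting for MSL1 in all 6 planned settings and for MSL3 in all but that of summits within 500 bp (25.0% on the X, 25.7% on the autosomes). No paired analysis was possible because the lists name no library for either IDR input, and for the same reason no library could be left out. Depth is unknown, so absence from a list does not show absence of binding.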
